A study of Mus musculus with 12 samples.

Results

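The response of *Adam17*-KD MC38CEA cells to IL1β and IFNγ was described from 6 of the 12 libraries of the series, 3 of stimulated and 3 of unstimulated cells, all of which carried the *Adam17* edit. MC38CEA cells derive from a mouse colon tumour and carry carcinoembryonic antigen (CEA). To obtain *Adam17*-KD cells, Cas9 mRNA and then guide RNAs against *Adam17*, which encodes a membrane protease that sheds cytokines, receptors and growth factor precursors, were electroporated into the line. Editing was done on a whole cell population; the sources used here do not say that the sequenced cells were cloned. Stimulated *Adam17*-KD cells received human recombinant IL1β and mouse recombinant IFNγ for 6 h, each at 10 ng/ml, and unstimulated *Adam17*-KD cells received neither. Control cells, titled WT in the labels, received a guide RNA against EGFP instead of those against *Adam17*. They were stimulated or left unstimulated in the same way (3 libraries each) and are set beside the *Adam17*-KD cells at the end. The labels call the libraries biological replicates, but it is not stated whether they came from separate editing experiments. The p-values then cover the spread between these libraries. Of the 43269 genes counted, 14139 had enough reads in the 6 libraries to be tested.

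The libraries of *Adam17*-KD cells held 13201129 to 22127761 counted reads (13156871 to 25443307 over all 12). Levels are given as CPM, a gene's count divided by the scaled total of its library, so that libraries of different depth and composition can be compared. *Adam17* itself stood at 57.1, 59.8 and 62.4 CPM in stimulated and 49.7, 57.3 and 49.7 CPM in unstimulated *Adam17*-KD cells, against 93.8, 111 and 110.3 CPM in stimulated and 77.0, 91.8 and 94.4 CPM in unstimulated control cells. Thus *Adam17* mRNA was lower in all 6 *Adam17*-KD libraries than in any control library, but was far from absent. Within *Adam17*-KD cells it did not pass the test for a response to the cytokines (log2 fold change 0.19 ± 0.11, adjusted p = 0.427). *Adam10*, its closest relative, averaged 29.2 ± 2.10 CPM in stimulated and 30.9 ± 5.71 CPM in unstimulated cells (SD, n = 3 each), with an adjusted p of 0.844. The reference genes *Eef2* (adjusted p = 0.79) and *Polr2b* (adjusted p = 0.665) likewise did not pass. None of the 8 epithelial markers *Epcam*, *Cdh1*, *Krt8*, *Krt18*, *Krt19*, *Krt20*, *Cdx2* and *Vil1* had enough reads to be tested. Their summed level was 0.362 to 0.699 CPM in stimulated and 0.269 to 0.393 CPM in unstimulated cells. These levels describe the cultures, and the origin of the line was not tested. The fibroblast markers together reached 134 to 197 CPM in stimulated and 278 to 327 CPM in unstimulated cells. Most of this was *Col1a2*, at 87.4 to 139 CPM in stimulated and 209.8 to 252 CPM in unstimulated cells. Leukocyte markers summed to 4.27 to 6.53 CPM in stimulated and 3.20 to 4.90 CPM in unstimulated cells, and endothelial markers to less than 1 CPM in each library. The nuclear RNA *Malat1*, whose share of poly(A)+ RNA can vary with how RNA was prepared, was at 474, 932 and 471 CPM in stimulated and 1233, 1185 and 566 CPM in unstimulated cells, so its groups overlapped (log2 fold change -0.67 ± 0.33, adjusted p = 0.325).

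IL1β binds a receptor that signals through MYD88 and IRAK kinases to NF-κB, which is held in the cytoplasm by IκB proteins until the IκB kinase marks these for destruction. IFNγ binds a receptor that carries the kinases JAK1 and JAK2, and the signal reaches GAS elements in promoters and switches on IRF1, which in turn binds interferon-stimulated response elements (ISRE). Together the cytokines are known to induce inducible nitric oxide synthase, chemokines and the machinery of antigen presentation in many cell types.

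In *Adam17*-KD cells 933 genes were called higher after stimulation and 242 lower, that is at an adjusted p (Benjamini-Hochberg) below 0.05 in edgeR's quasi-likelihood F-test over all genes tested. These were 6.60% and 1.71% of the 14139 genes, 8.31% together. Counts of called genes in the lists below stand against these shares. Changes are given as log2 fold changes of stimulated over unstimulated cells, with their standard error, at n = 3 libraries per group. The median change was 1.33 among genes called higher and -0.82 among genes called lower, against 0.0019 over all genes tested. Of the rises 586 exceeded 2-fold, 289 exceeded 4-fold, 159 exceeded 8-fold and 60 exceeded 32-fold. Of the falls 87 exceeded 2-fold, 9 exceeded 4-fold and 3 exceeded 8-fold. The levels of the groups did not overlap in 3488 of the genes tested (24.7%), all 1175 called genes among them. The genes called higher took 12.5, 13.7 and 13.6% of all counts in stimulated libraries, against 5.44, 5.57 and 5.18% in unstimulated libraries. The genes called lower took 0.763, 0.782 and 0.736% in stimulated and 1.45, 1.43 and 1.27% in unstimulated libraries. The number of genes called lower fell when 1 library was left out. It was 157, 136 and 186 without stimulated replicate 1, 2 or 3, and 117, 93 and 233 without unstimulated replicate 1, 2 or 3. The number called higher also fell, to between 717 and 884, when any of the 6 libraries was left out. Of the 933 genes called higher 75.13 to 88.85% kept the call, and of the 242 called lower 37.6 to 76.03%.

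**Figure D1:**
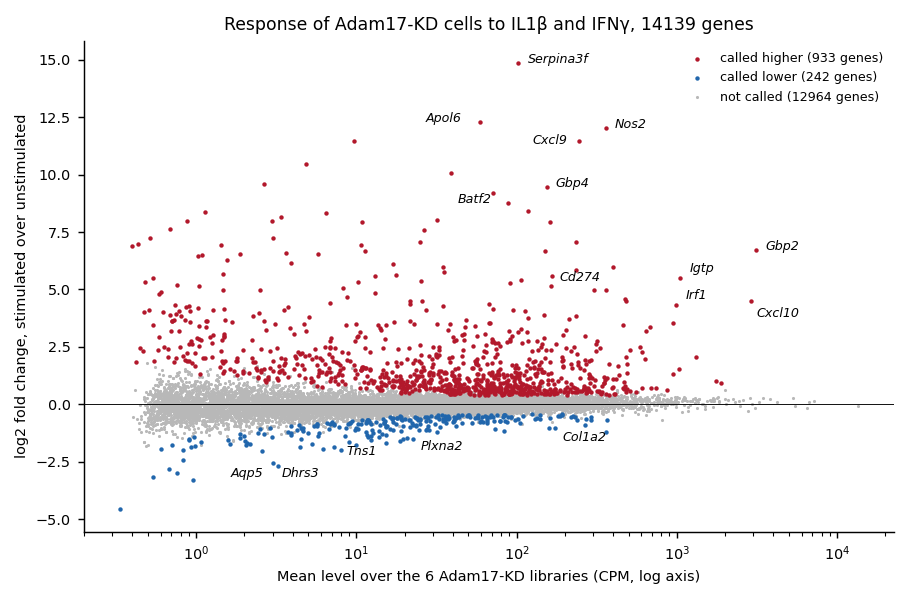
Log2 fold change of stimulated over unstimulated *Adam17*-KD cells (vertical axis) against the mean level in CPM over the 6 libraries (horizontal log axis) for the 14139 genes tested. The 933 genes called higher (red) reach further from 0 than the 242 called lower (blue), and *Serpina3f*, *Apol6*, *Nos2* and *Cxcl9* have the highest fitted fold changes among the labelled genes.

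The promoters of 8 genes called higher are shown because each holds the letters of at least 1 of the 3 binding elements through which these cytokines are known to act. The sequences are from RefSeq (build GRCm38.p6), run 5′ to 3′ along the gene's strand from 250 bases before the transcription start to 50 bases after it, and carry in capitals each match to GAS (TTCNNNGAA), ISRE (GAAANNGAAA) or κB (GGGNNTTNCC), searched on both strands. Neighbouring or overlapping matches run together. Where RefSeq gave several starts, the most upstream is shown. *Irf1* and *Igtp* encode the transcription factor IRF1 and an immunity-related GTPase, and *Gbp5* a guanylate-binding protein. *Cxcl9* and *Cxcl10* encode chemokines for T cells and *Isg15* a ubiquitin-like protein. *Nfkbia* encodes the inhibitor IκBα and *B2m* the light chain of MHC class I.
Irf1 promoter, chr11:53769764-53770063, plus strand: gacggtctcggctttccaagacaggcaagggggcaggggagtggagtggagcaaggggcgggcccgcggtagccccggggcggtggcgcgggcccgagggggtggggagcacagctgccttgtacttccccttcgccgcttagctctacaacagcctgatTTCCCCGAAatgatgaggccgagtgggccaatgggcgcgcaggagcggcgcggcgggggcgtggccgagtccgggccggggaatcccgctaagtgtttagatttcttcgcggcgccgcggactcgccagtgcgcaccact
Igtp promoter, chr11:58199306-58199605, plus strand: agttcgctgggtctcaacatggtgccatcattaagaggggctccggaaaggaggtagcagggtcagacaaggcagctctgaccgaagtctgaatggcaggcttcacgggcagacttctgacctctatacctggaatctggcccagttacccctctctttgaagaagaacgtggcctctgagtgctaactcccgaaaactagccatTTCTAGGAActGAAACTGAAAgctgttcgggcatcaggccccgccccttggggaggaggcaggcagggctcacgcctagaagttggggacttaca
Gbp5 promoter, chr3:142496684-142496983, plus strand: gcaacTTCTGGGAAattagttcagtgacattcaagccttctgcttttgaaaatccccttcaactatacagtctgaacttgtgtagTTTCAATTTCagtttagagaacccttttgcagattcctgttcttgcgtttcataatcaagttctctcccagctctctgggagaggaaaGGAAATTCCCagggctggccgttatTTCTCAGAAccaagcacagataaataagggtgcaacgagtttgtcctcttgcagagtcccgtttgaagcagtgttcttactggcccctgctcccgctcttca
Cxcl10 promoter, chr5:92348840-92349139, minus strand: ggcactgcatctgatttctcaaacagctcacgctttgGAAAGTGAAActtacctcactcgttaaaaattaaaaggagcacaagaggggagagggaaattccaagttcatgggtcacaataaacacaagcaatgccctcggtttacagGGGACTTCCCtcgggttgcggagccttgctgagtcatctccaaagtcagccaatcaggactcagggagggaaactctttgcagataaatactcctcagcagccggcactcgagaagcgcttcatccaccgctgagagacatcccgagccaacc
Cxcl9 promoter, chr5:92328030-92328329, minus strand: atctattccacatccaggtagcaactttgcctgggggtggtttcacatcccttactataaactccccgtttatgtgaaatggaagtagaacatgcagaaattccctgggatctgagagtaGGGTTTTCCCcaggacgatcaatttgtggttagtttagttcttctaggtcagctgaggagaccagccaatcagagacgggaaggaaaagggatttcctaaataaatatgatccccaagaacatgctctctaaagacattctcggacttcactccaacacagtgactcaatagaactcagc
Isg15 promoter, chr4:156200769-156201068, minus strand: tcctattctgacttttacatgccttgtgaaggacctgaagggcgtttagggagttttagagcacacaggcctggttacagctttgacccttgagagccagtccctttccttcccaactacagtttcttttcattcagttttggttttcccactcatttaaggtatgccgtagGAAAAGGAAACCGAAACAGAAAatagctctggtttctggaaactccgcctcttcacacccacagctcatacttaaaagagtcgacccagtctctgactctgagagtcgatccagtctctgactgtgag
Nfkbia promoter, chr12:55492598-55492897, minus strand: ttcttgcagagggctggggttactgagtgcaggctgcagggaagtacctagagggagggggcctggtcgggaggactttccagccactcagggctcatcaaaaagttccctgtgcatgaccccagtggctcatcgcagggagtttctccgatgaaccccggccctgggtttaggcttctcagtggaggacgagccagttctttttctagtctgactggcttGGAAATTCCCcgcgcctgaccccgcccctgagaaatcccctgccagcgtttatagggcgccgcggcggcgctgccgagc
B2m promoter, chr2:122147437-122147736, plus strand: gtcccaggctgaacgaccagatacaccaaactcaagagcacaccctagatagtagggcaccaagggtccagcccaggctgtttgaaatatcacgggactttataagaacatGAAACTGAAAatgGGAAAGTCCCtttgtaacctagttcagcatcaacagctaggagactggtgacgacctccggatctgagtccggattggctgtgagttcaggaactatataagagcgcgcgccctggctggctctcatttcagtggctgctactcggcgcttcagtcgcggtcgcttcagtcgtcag

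A GAS match lay at positions -90 to -82 from the start of *Irf1*, and *Igtp* held a GAS match at -45 to -37 beside an ISRE match at -34 to -25. *Gbp5* held a match to each of the 3 elements, with GAS at -245 and -52, ISRE at -165 and κB at -77 (first base). *Cxcl10* held an ISRE match at -213 and a κB match at -103, and *B2m* an ISRE match at -139 and a κB match at -126. *Isg15* held ISRE matches at -78, -72 and -66, which overlap. *Cxcl9* and *Nfkbia* held a κB match only, at -130 and -29. Promoters in RefSeq's table could be matched to 666 of the 933 genes called higher (869 promoters, since a gene can have several) and to 165 of the 242 called lower (241 promoters). A GAS match was present in 12.2% of promoters of genes called higher and 3.32% of those called lower, against 6.89% of the 11456 promoters of all genes tested and 8.30% of all 32851 promoters in the table. For ISRE the shares were 12.5% of those called higher and 2.07% of those called lower, against 3.19% of genes tested and 3.44% of all. For κB they were 9.55% and 6.22%, against 5.50% of genes tested and 4.79% of all. Among genes that rose at least 8-fold (120 promoters), 20% held GAS, 20.8% ISRE and 14.2% κB, and 11.7% held more than 1 kind, against 0.917% of the promoters of all genes tested. A match is a description of these letters and not of binding.

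The largest fitted rise was that of *Serpina3f*, a gene for a serine protease inhibitor. It was at 183, 228 and 205 CPM in stimulated cells and had no read in any of the 3 unstimulated libraries, at least 4124-fold higher when the unstimulated level is set at 3 counts over the group. Its neighbours *Serpina3g* (129, 165 and 132 CPM in stimulated and 0.0533, 0.323 and 0.306 CPM in unstimulated cells) and *Serpina3i* (at least 195-fold higher) also rose. All 3 protein-coding genes of this stretch, chr12:104214544-104269372 in the mm10 build, rose, and *Serpina3h*, annotated as a transcribed pseudogene, also rose (5.17 ± 0.77). *Apol6*, an apolipoprotein L gene, was at 122, 136 and 94.1 CPM in stimulated cells, against 0, 0.0538 and 0 CPM in unstimulated cells. The transcription factor gene *Batf2* stood at 164, 203 and 166 CPM in stimulated and 0.213, 0.431 and 0.524 CPM in unstimulated cells, a log2 fold change of 8.78 ± 0.23. *Ubd*, which encodes the ubiquitin-like modifier FAT10, had 15.1, 20.2 and 22.9 CPM in stimulated cells and no read in unstimulated cells, at least 390-fold higher. The remaining genes among the 15 largest fitted rises were *Nos2*, *Cxcl9*, *Cxcl11*, *Gbp4*, *Gbp11*, *H2-Aa*, *Fam26f* (8.33 ± 0.45), *Ms4a4d* (8.16 ± 0.63) and *Mpeg1* (8.04 ± 0.27), and 1 predicted gene was as high. *Serpina3f*, *Ubd*, *Serpina3i* and *Gbp11* had no unstimulated read, so their places follow fitted values that are no bounds. Some of these are best known from macrophages, such as *Mpeg1*, a pore-forming protein, at 60.1, 70.2 and 59.9 CPM in stimulated and 0.160, 0.431 and 0.131 CPM in unstimulated cells. The leukocyte marker *Ptprc* (CD45) was at 0 to 0.0604 CPM in stimulated and 0 to 0.0538 CPM in unstimulated cells, and *Itgam* and *Cd68* did not pass the test.

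Inducible nitric oxide synthase was among the genes most strongly induced. *Nos2* was at 733, 898 and 527 CPM in stimulated *Adam17*-KD cells, against 0.0533, 0.269 and 0.175 CPM in unstimulated *Adam17*-KD cells. The lowest stimulated library lay far above the highest unstimulated one, and the fitted log2 fold change was 12.02 ± 0.36 (adjusted p = 4.27e-08). *Gch1*, the enzyme that begins synthesis of the cofactor tetrahydrobiopterin, rose to 11.2 ± 0.772 CPM in stimulated cells, against 3.05 ± 0.127 CPM in unstimulated cells. *Slc7a2*, an arginine transporter, rose by 0.94 ± 0.16 (adjusted p = 0.0663 in the fit of all 12 libraries). Of the 9 genes tested in the list on nitric oxide and tetrahydrobiopterin these 3 were called higher and none lower, and the later enzymes of cofactor synthesis were not called.

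The transcripts of all 3 chemokine ligands of CXCR3, the receptor of activated T cells, rose. *Cxcl9* was at 413, 505 and 556 CPM in stimulated cells, against 0, 0.0538 and 0.393 CPM in unstimulated cells. *Cxcl10* was at 5096, 5460.0 and 6060.0 CPM in stimulated cells and 238, 207 and 288 CPM in unstimulated cells, so it was expressed before stimulation and still rose by 4.50 ± 0.19. *Cxcl11* was at 56.6, 73.9 and 102 CPM in stimulated and 0, 0 and 0.175 CPM in unstimulated cells. GENCODE types *Cxcl11* as a polymorphic pseudogene, and whether its RNA gave a protein was not tested. Of 8 genes tested in the list of CC chemokines, which also held the CX3C chemokine *Cx3cl1*, 5 rose and none fell. The monocyte attractant *Ccl2* reached 586, 631 and 539 CPM in stimulated cells, against 23.9, 21.4 and 11.1 CPM in unstimulated cells (log2 fold change 4.96 ± 0.27). Its neighbour *Ccl7* was at 39.8, 45.7 and 38.0 CPM in stimulated and 2.08, 2.10 and 1.27 CPM in unstimulated cells (4.51 ± 0.21). *Ccl5*, an attractant of T cells, rose by 2.61 ± 0.17, the membrane-bound chemokine *Cx3cl1* by 3.15 ± 0.20 and *Ccl9* by 2.03 ± 0.33. *Ccl25*, *Ccl28* and *Ccl4* were not called. The neutrophil attractants *Cxcl1* (5.39 ± 0.16), *Cxcl3* (6.92 ± 0.65) and *Cxcl5* (4.05 ± 0.80) and the macrophage growth factor *Csf1* (1.35 ± 0.15) all rose. *Cxcl1* was at 186, 236 and 202 CPM in stimulated and 5.43, 5.00 and 4.41 CPM in unstimulated cells, whereas *Cxcl5* stayed at or below 2.32 CPM. *Cxcl5* was not called without unstimulated replicate 2 (adjusted p = 0.0524).

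Among 10 interleukin and related genes tested there were 5 rises and 1 fall. *Lif*, a cytokine of the IL6 family, was at 147, 144 and 164 CPM in stimulated and 25, 19.5 and 24.6 CPM in unstimulated cells (2.72 ± 0.14). *Il6* rose by 3.66 ± 0.37, but to only 2.75, 2.78 and 2.87 CPM in stimulated cells, against 0.160, 0.215 and 0.262 CPM in unstimulated cells. *Il15*, a survival factor of natural killer cells, rose by 3.44 ± 0.29, the decoy receptor *Il18bp* by 3.24 ± 0.19 and *Il7* by 1.39 ± 0.33. *Il16*, a chemoattractant of CD4+ cells, fell (log2 fold change -1.70 ± 0.42, adjusted p = 0.0331). *Tnf*, *Il1a* and *Il1b* had too few reads to be tested. Receptors for other cytokines also moved, in a list chosen after their values were seen, where 10 of 19 genes tested rose and 1 fell. *Il1rl1*, the IL33 receptor, was at 422, 365 and 492 CPM in stimulated and 119.8, 110.5 and 101 CPM in unstimulated cells. *Il15ra* rose by 3.36 ± 0.16, *Il13ra1* by 2.31 ± 0.14, *Osmr* by 2.27 ± 0.21 and *Ccrl2*, a chemerin-binding receptor, by 4.50 ± 0.23. *Il17rd* fell (-0.83 ± 0.21). Some of these calls lay near the threshold and were lost when 1 library was left out. *Il7* was not called without stimulated replicate 1, 2 or 3 or without unstimulated replicate 1 or 3 (adjusted p = 0.0564 to 0.106). *Il16* was not called without stimulated replicate 1 or 3 or without unstimulated replicate 1 or 2 (adjusted p = 0.0592 to 0.151). *Il17rd* was not called without stimulated replicate 1, 2 or 3 or without unstimulated replicate 1 or 2 (adjusted p = 0.0778 to 0.177).

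**Figure D2:**
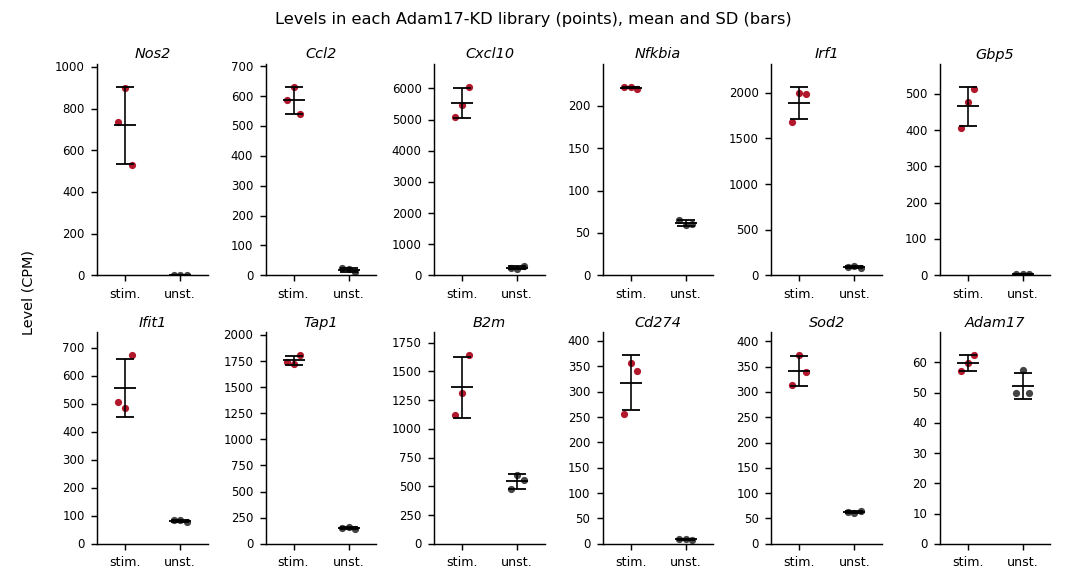
Level in CPM (vertical axis from 0, one scale per gene) of 12 genes in each stimulated (red, left) and unstimulated (grey, right) *Adam17*-KD library, with the mean and SD of the 3 libraries. The groups are apart in 11 genes, as in *Nos2* with 527 to 898 CPM in stimulated cells and under 1 CPM in unstimulated cells, while *Adam17* was not called.

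Among the components that carry the IL1 signal to NF-κB, 3 of 18 genes tested rose (16.7%, against 6.60% of all genes tested) and none fell. *Irak2*, a kinase that sustains the signal, rose to 39.9 ± 5.16 CPM in stimulated cells (unstimulated 3.19 ± 0.364 CPM), with a log2 fold change of 3.64 ± 0.17. The adaptor *Myd88* rose by 1.57 ± 0.13 and the kinase *Map3k8* by 1.73 ± 0.29. The other 15 were not called, among them *Tab2* and the IκB kinase gene *Ikbkg*, and the median change of the list was 0.032. Of the NF-κB subunits and inhibitors 12 of 16 were called higher and none lower, with a median of 1.14. *Nfkbia* was at 222, 223 and 220.3 CPM in stimulated cells, against 65.4, 59.4 and 60.7 CPM in unstimulated cells (1.84 ± 0.10). *Nfkbiz*, which encodes a nuclear co-activator of NF-κB, rose by 3.06 ± 0.21, *Bcl3*, of the same family, by 3.31 ± 0.21 and the RNase *Zc3h12a*, which degrades cytokine mRNAs, by 2.43 ± 0.22. The subunit *Relb* (1.22 ± 0.11) and the inhibitors *Nfkbib* (1.25 ± 0.13) and *Nfkbie* (1.40 ± 0.12) rose, while *Rela*, the main activating subunit, was not called (0.42 ± 0.15, adjusted p = 0.151). Of 18 other NF-κB targets tested 11 rose and 1, the zinc transporter *Slc39a14*, fell. *Vcam1*, an adhesion molecule for leukocytes, was at 612, 598 and 741 CPM in stimulated and 220.3, 199.9 and 193 CPM in unstimulated cells. *Icam1*, the other such molecule, rose by 6.54 ± 0.55 but reached no more than 4.26 CPM. *Slc39a14* was not called without unstimulated replicate 1 or 2 (adjusted p = 0.0539 to 0.0925). Superoxide dismutase 2, the mitochondrial enzyme encoded by *Sod2*, was at 313, 373 and 340.2 CPM in stimulated and 63.5, 61.3 and 64.2 CPM in unstimulated cells.

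In the IFNγ pathway the receptor genes *Ifngr1* and *Ifngr2* and the kinase *Jak1* were not called. *Stat2* rose by 2.33 ± 0.17, *Stat3* by 1.92 ± 0.12 and *Jak2* by 1.56 ± 0.18. The feedback inhibitors rose as well, with *Socs1* at 72.6, 48.2 and 53.8 CPM in stimulated and 5.01, 4.31 and 6.20 CPM in unstimulated cells, and *Socs3* (2.85 ± 0.12), *Usp18* (2.01 ± 0.13) and *Cish* (3.24 ± 0.43) also higher. Among 20 genes tested in this list there were 8 rises and no fall (median 0.35). Of the interferon regulatory factors tested, *Irf3* alone was not called. *Irf1* was at 1679.7, 1995 and 1987 CPM in stimulated cells, against 90.9, 103 and 84.9 CPM in unstimulated cells (4.34 ± 0.16). *Irf7* (2.19 ± 0.12), *Irf2* (1.72 ± 0.12), *Irf5* (1.64 ± 0.16) and *Irf9* (0.90 ± 0.13) rose by less.

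The GTPases that attack vacuoles of intracellular parasites were raised almost throughout. All 9 guanylate-binding protein genes tested rose, with a median of 6.66. *Gbp2* was at 5073, 6849 and 6719.8 CPM in stimulated cells, against 55.2, 69.0 and 51.9 CPM in unstimulated cells. *Gbp5*, on chromosome 3, was at 407, 477 and 513 CPM in stimulated and 2.93, 4.90 and 2.67 CPM in unstimulated cells, and *Gbp4*, on chromosome 5, at 209, 396 and 322 CPM in stimulated and 0.533, 0.538 and 0.262 CPM in unstimulated cells. *Gbp3* (4.49 ± 0.20), *Gbp6* (5.85 ± 0.29), *Gbp7* (4.08 ± 0.21), *Gbp8* (6.66 ± 0.51) and *Gbp9* (5.27 ± 0.35) rose by less than *Gbp4*, and *Gbp11* had no read in unstimulated libraries (at least 107-fold higher). GENCODE types *Gbp11* as a polymorphic pseudogene. Immunity-related GTPases followed, with 9 of 10 called higher and a median of 4.41. *Igtp* was at 1760.0, 2269 and 2136 CPM in stimulated and 43.6, 55.2 and 36.3 CPM in unstimulated cells (5.51 ± 0.21), and *Irgm1*, a regulator of the family, rose by 3.19 ± 0.18. *Iigp1* rose by 6.00 ± 0.25, *Ifi47* by 4.96 ± 0.22 and *Tgtp1* by 6.68 ± 0.17. Some members of these families are close in sequence. How reads that fit several genes were counted is not given in the sources used here, so the levels of single members can be uncertain.

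Antiviral genes, which are best known as targets of type I interferon, rose in nearly every case and by smaller factors. Of the 8 IFIT and IFITM genes tested 7 rose, with a median of 2.72, and all 6 *Ifit* genes between *Ifit2* and *Ifit1* on chromosome 19 (99 kb) were among them. *Ifit1* was at 506, 485 and 674 CPM in stimulated cells, against 85.5, 83.2 and 78.8 CPM in unstimulated cells (2.75 ± 0.15). *Ifit3* rose by 3.69 ± 0.24 and *Ifit3b* by 3.43 ± 0.15. All 8 oligoadenylate synthetase genes rose, with a median of 1.655. *Oas1b*, which GENCODE types as a polymorphic pseudogene, was at 43.9, 62.7 and 32.7 CPM in stimulated and 14.0, 15.7 and 11.8 CPM in unstimulated cells (1.75 ± 0.23). *Oas3* (2.27 ± 0.15) and *Oasl2* (2.27 ± 0.13) rose furthest. Among 51 further interferon-stimulated genes tested, 48 rose (median of the list 2.06). The RNA sensor *Zbp1* was at 752, 1046 and 928 CPM in stimulated and 34.6, 50.1 and 30.0 CPM in unstimulated cells, and *Parp14* (3.23 ± 0.15), *Sp140* (3.23 ± 0.16), *Cmpk2* (2.97 ± 0.13) and *Isg15* (2.06 ± 0.15) rose as well. *Mb21d1*, which encodes the DNA sensor cGAS, was not called (0.42 ± 0.14). In families listed after their values were seen, all 7 schlafens, 8 of 9 PYHIN genes, 6 of 9 apolipoproteins L and all 5 *Ly6* genes tested were called higher, with none lower. Their median changes were 2.56, 3.15, 1.86 and 3.60.

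Genes for antigen presentation by MHC class I rose together with the immunoproteasome. *B2m* was at 1122, 1316 and 1642 CPM in stimulated cells, against 472, 602 and 558 CPM in unstimulated cells (1.32 ± 0.17). Of 14 genes tested, *B2m* and heavy chains, 11 rose, with a median of 1.40, among them *H2-M3* (1.90 ± 0.13), *H2-T22* (1.82 ± 0.16) and *H2-Q4* (1.77 ± 0.19). *Tap1*, a subunit of the transporter that carries peptides into the endoplasmic reticulum, was at 1738, 1723 and 1808 CPM in stimulated and 148, 161 and 142 CPM in unstimulated cells. Of 16 processing genes 12 rose, and the chaperones *Calr* and *Pdia3*, which also serve other proteins, were not called. The immunoproteasome subunit *Psmb9* rose by 3.88 ± 0.15, *Psmb10* by 3.45 ± 0.27 and *Psmb8* by 2.46 ± 0.17, and *Nlrc5*, the co-activator of class I genes, by 2.98 ± 0.25. *Psmb10* was at 643, 638 and 1241 CPM in stimulated and 85.2, 81.0 and 64.6 CPM in unstimulated cells, with stimulated replicate 3 the highest. Of 14 constitutive proteasome subunits 6 were called higher (42.9%, against 6.60% of all genes tested) and none lower, and the log2 fold change was above 0 in all 14, with a median of 0.507. *Psma5* rose most (1.24 ± 0.15).

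Of 9 genes tested for antigen presentation by MHC class II 7 rose and none fell. *Ciita*, the class II co-activator, was at 4.91, 9 and 4.04 CPM in stimulated and 0, 0 and 0.0874 CPM in unstimulated cells, and *H2-Aa* at 3.99, 10.4 and 3.26 CPM in stimulated and 0.0533, 0 and 0 CPM in unstimulated cells. *Cd74*, the invariant chain, was at 7.18, 15.3 and 3.57 CPM in stimulated and 0.905, 1.24 and 0.743 CPM in unstimulated cells, and stimulated replicate 2 was highest for all 3 genes. *H2-DMb1*, a chain of the peptide-loading chaperone, was at 23.2, 28.0 and 23.4 CPM in stimulated and 10.1, 15.4 and 16.6 CPM in unstimulated cells, while the thiol reductase *Ifi30* was not called. *H2-DMb1* was not called without stimulated replicate 1 or 2 or without unstimulated replicate 1 or 2 (adjusted p = 0.052 to 0.111). Of 9 genes tested for checkpoint ligands and tryptophan metabolism 6 rose. *Cd274*, which encodes PD-L1, was at 256, 356 and 342 CPM in stimulated cells, against 9.75, 9.42 and 7.69 CPM in unstimulated cells (5.15 ± 0.18). *Ido1*, which degrades tryptophan, was at 12.7, 11.6 and 10.0 CPM in stimulated and 0.0533, 0.215 and 0.0874 CPM in unstimulated cells, and *Wars*, which charges tRNA with tryptophan, rose by 2.05 ± 0.15. *Cd47*, a ligand that inhibits phagocytosis, rose by 1.43 ± 0.14, while the poliovirus receptor *Pvr* was not called.

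Of 22 genes in the list on death receptors, caspases and pyroptosis 14 rose, none fell, and the median was 0.852. *Fas*, a death receptor, was at 54.8, 65.2 and 85.8 CPM in stimulated cells, against 1.38, 0.807 and 1.05 CPM in unstimulated cells, and the ligand *Tnfsf10* (TRAIL) rose by 5.08 ± 0.28. The inflammatory caspases *Casp4* (2.72 ± 0.25) and *Casp1* (2.44 ± 0.30), the pore-former *Gsdmd* (1.34 ± 0.15) and the BH3-only gene *Bcl2l11* (1.98 ± 0.17) rose, whereas *Casp8* was not called. Complement genes were called higher in 8 of 11 cases, with a median of 3.85. *C1s1*, a protease of the classical pathway, was at 163, 264 and 113 CPM in stimulated and 8.31, 17.6 and 5.90 CPM in unstimulated cells. *C4b* (7.05 ± 0.58) and *C3* (4.84 ± 0.51) rose as well, with stimulated replicate 2 highest for all 3 genes. Of acute-phase and iron genes 4 of 8 rose, including *Lcn2* (4.96 ± 0.53) at no more than 7.61 CPM, and 1, *Slc39a14*, fell. Metallothionein 2 (*Mt2*) was at 860.2, 824 and 871 CPM in stimulated and 238, 157 and 104 CPM in unstimulated cells.

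Genes for ADAM17, its partners and the proteins it sheds were examined as lists of their own. Of 7 sheddases and cofactors tested *Adam8* (1.34 ± 0.18), *Adam9* (0.71 ± 0.14) and *Rhbdf2* (0.74 ± 0.14) rose, and *Adam17*, *Adam10* and *Rhbdf1* were not called. *Rhbdf2* encodes iRhom2, which escorts ADAM17 to the cell surface, and was at 27.8, 29.8 and 23.9 CPM in stimulated and 17.3, 16.8 and 14.9 CPM in unstimulated cells. Among ligands of the EGF receptor *Ereg* rose to 24.5 ± 1.04 CPM in stimulated cells (unstimulated 14.9 ± 2.18 CPM). *Ereg* was not called without unstimulated replicate 2 (adjusted p = 0.0747). *Areg* was not called, and *Egfr* itself had too few reads to be tested. The receptor *Erbb3* fell (log2 fold change -0.85 ± 0.15, adjusted p = 0.0046). Of 19 other genes tested that encode proteins shed by ADAM17, 5 rose and 1 fell. These were 26.3% and 5.26%, against 6.60% higher and 1.71% lower over all genes tested. *Tnfrsf1a*, a TNF receptor, was at 253, 229 and 227 CPM in stimulated and 90.5, 93.6 and 89.7 CPM in unstimulated cells, and *Notch1* rose by 1.49 ± 0.16, while the Notch ligand *Jag1* fell by 1.13 on the log2 scale. Transcripts do not show how much of any protein was shed.

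**Figure D3:**
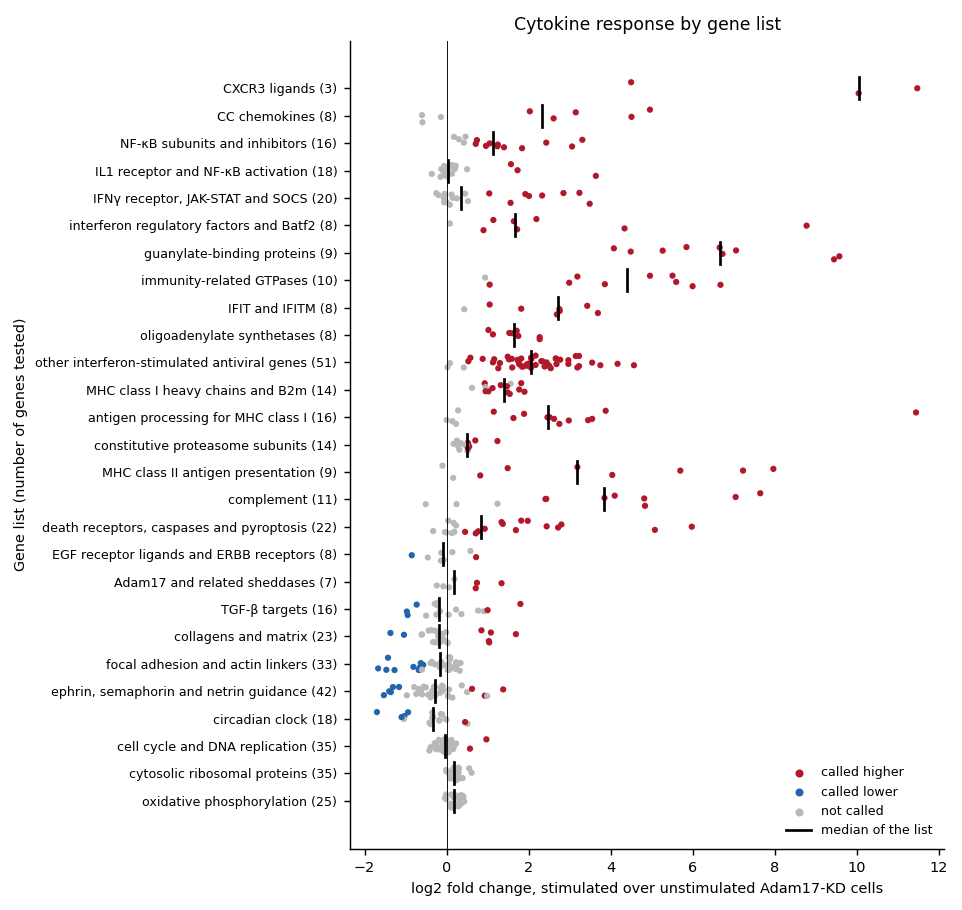
Log2 fold change of stimulated over unstimulated *Adam17*-KD cells (horizontal axis) for each gene tested in 27 lists (vertical axis, number of genes tested in brackets), with called genes in red (higher) or blue (lower) and the median as a bar. Guanylate-binding proteins have a median of 6.66 and the focal adhesion list a median of -0.151 with 10 genes called lower.

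The falls were smaller. The 15 largest, at a mean of 20 counts or more, had log2 fold changes between -2.70 and -1.64. Called genes with a lower mean count fell further, down to -4.566. *Aqp5*, a water channel, was at 0.917, 0.604 and 1.09 CPM in stimulated cells, against 4.21, 6.51 and 6.16 CPM in unstimulated cells (adjusted p = 0.000383). *Dhrs3*, an enzyme that converts retinal to retinol, was at 0.755, 1.09 and 0.776 CPM in stimulated and 3.94, 6.30 and 5.20 CPM in unstimulated cells. *Tns1*, which encodes the actin linker tensin 1, was at 7.72, 9.12 and 5.12 CPM in stimulated and 22.7, 30.4 and 17.1 CPM in unstimulated cells. The other largest falls were those of *Chst1*, *Sned1*, *Dlx3*, *Kif26b*, *Medag*, *Kirrel3*, *Lrrn4cl*, *Dlk2*, *Nol4*, *Dbp*, *Il16* and *Gxylt2*, and 1 predicted gene fell as far. *Sned1* was not called without stimulated replicate 3 or without unstimulated replicate 1 or 2 (adjusted p = 0.0547 to 0.0637). *Dlk2* was not called without stimulated replicate 2 (adjusted p = 0.0614). *Gxylt2* was not called without stimulated replicate 2 or without unstimulated replicate 1 or 2 (adjusted p = 0.0541 to 0.0634). *Il16* was not called without stimulated replicate 1 or 3 or without unstimulated replicate 1 or 2 (adjusted p = 0.0592 to 0.151). Genes called lower had longer transcripts, with a median of 4648 nt for the longest annotated transcript, against 2950 nt over all genes tested and 3055 nt for genes called higher. The part of transcript length in these falls was not tested.

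Of 16 genes tested in the list of TGF-β targets 3 fell and 2 rose. These were 18.75% and 12.5%, against 1.71% lower and 6.60% higher over all genes tested. *Tgfb3* (-0.97 ± 0.14), the receptor *Tgfbr2* (-0.73 ± 0.14) and the mediator *Smad3* of the TGF-β pathway fell, while *Id3* (1.80 ± 0.19) and *Bambi* (1.00 ± 0.21), a decoy receptor, rose. *Smad3* was at 30.2, 30.9 and 25.3 CPM in stimulated and 55.6, 58.5 and 52.5 CPM in unstimulated cells. *Pdgfra* fell to 14.5 ± 2.16 CPM in stimulated cells (unstimulated 28.9 ± 3.14 CPM) and *Pdgfrb* to 17.8 ± 4.50 CPM (unstimulated 32.1 ± 5.22 CPM). Both PDGF receptors and *Col1a2* are also among the 5 fibroblast markers tested, of which *Dcn* rose (0.85 ± 0.15), and a change in the number of cells of a kind cannot be told apart from less RNA per cell. *Col1a2* was at 115, 139 and 87.4 CPM in stimulated and 252, 239 and 209.8 CPM in unstimulated cells. *Fn1* (-0.28 ± 0.15) was not called. Among 23 matrix genes tested there were 5 rises and 2 falls (21.7% and 8.70%, median of the list -0.178). The metalloprotease *Mmp11* and the activator *Plat* also fell. *Mmp11* was not called without unstimulated replicate 2 (adjusted p = 0.0596). *Plat* was not called without stimulated replicate 1 or 3 or without unstimulated replicate 1 or 3 (adjusted p = 0.0596 to 0.114). *Bambi* was not called without unstimulated replicate 1 (adjusted p = 0.0699). *Pdgfrb* was not called without stimulated replicate 1 or 3 or without unstimulated replicate 1 or 2 (adjusted p = 0.0592 to 0.127). Of 31 genes tested in the list on ERK feedback and immediate early genes 8 rose and 1 fell (25.8% and 3.23%). The fall was that of *Dusp1*, a phosphatase of MAP kinases (-1.29 ± 0.24), and the transcription factor *Junb* (1.72 ± 0.12) and the mRNA decay factor *Zfp36* (2.35 ± 0.15) were among the rises. *Ddit4*, an inhibitor of mTOR, fell by 1.06 on the log2 scale.

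Further groups of falling genes were listed only after the values had been seen, with whole families entered. Of 33 genes tested for focal adhesions and actin linkers 10 fell and none rose. *Flnc*, which encodes filamin C, was at 236, 261 and 170.5 CPM in stimulated and 408, 329 and 334 CPM in unstimulated cells, and *Vcl* (-0.63 ± 0.12), *Nedd9* (-1.43 ± 0.25), *Sorbs3* (-1.47 ± 0.19) and *Cav1* (-0.67 ± 0.11) fell. *Flnc* was not called without stimulated replicate 1 or 3 or without unstimulated replicate 1 or 2 (adjusted p = 0.0568 to 0.135). *Flna* and *Actn4* were not called. Of 42 genes for ephrin, semaphorin and netrin guidance 5 fell and 3 rose. *Plxna2*, a semaphorin receptor, was at 11.5, 13.3 and 10.0 CPM in stimulated and 36.1, 36.4 and 28.4 CPM in unstimulated cells, and *Efnb2* at 11.1, 6.22 and 8.85 CPM in stimulated and 24.2, 21.3 and 19.8 CPM in unstimulated cells. *Ntn1* (1.38 ± 0.14) and *Nrp2* (0.93 ± 0.13) rose. In the clock list 4 of 18 genes fell, *Dbp* (-1.70 ± 0.29), *Bhlhe41* (-1.10 ± 0.24), *Per3* (-1.03 ± 0.28) and *Per2* (-0.94 ± 0.25), and 1, *Nfil3*, rose, while the core activator *Clock* was not called. *Bhlhe41* was not called without stimulated replicate 2 or without unstimulated replicate 1 or 2 (adjusted p = 0.0699 to 0.0873). *Per2* was not called without stimulated replicate 1, 2 or 3 or without unstimulated replicate 1, 2 or 3 (adjusted p = 0.051 to 0.201). *Per3* was not called without stimulated replicate 1 or 3 or without unstimulated replicate 1 or 2 (adjusted p = 0.125 to 0.192). *Nfil3* was not called without stimulated replicate 1, 2 or 3 or without unstimulated replicate 1 or 2 (adjusted p = 0.0767 to 0.225). Of 17 genes of the Notch and Hedgehog pathways 4 fell and 1 rose. *Gli1*, a transcription factor and target of Hedgehog signalling, was at 17.5, 24.3 and 16.1 CPM in stimulated and 49.3, 52.2 and 32.4 CPM in unstimulated cells. The counts of falling genes in these lists (30.3% of the focal adhesion genes, 11.9% of the guidance genes, 22.2% of the clock genes and 23.5% of the Notch and Hedgehog genes) stand against 1.71% of all genes tested, and were read after the lists had been chosen for them. The shares that rose were 7.14% of guidance, 5.56% of clock and 5.88% of Notch and Hedgehog genes, against 6.60% of all genes tested.

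**Figure D4:**
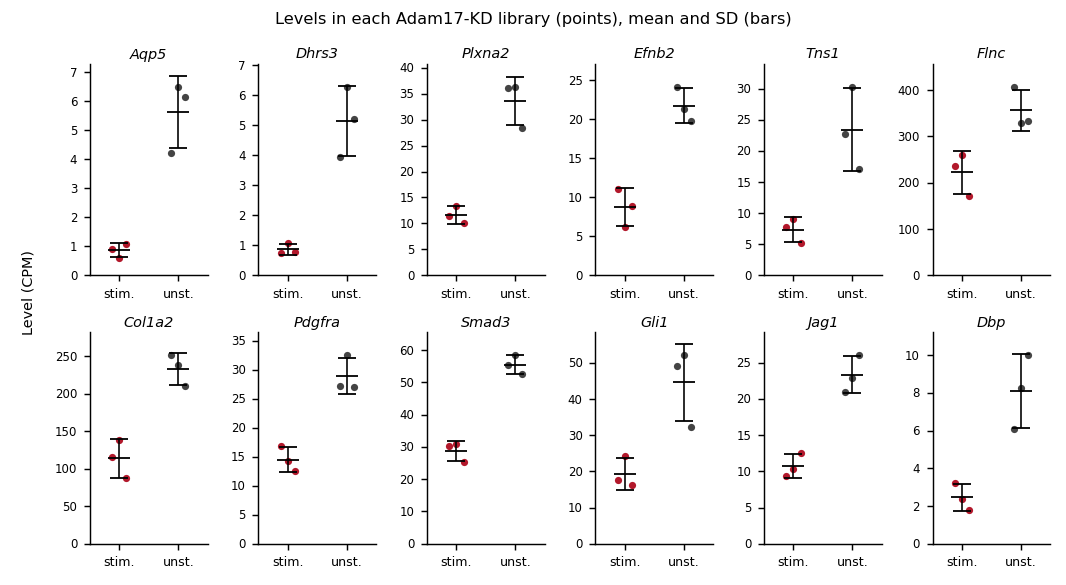
Level in CPM (vertical axis from 0, one scale per gene) of 12 genes called lower in each stimulated (red, left) and unstimulated (grey, right) *Adam17*-KD library, with the mean and SD of the 3 libraries. Groups do not overlap in any of the 12, and *Aqp5* was at 0.604 to 1.09 CPM in stimulated and 4.21 to 6.51 CPM in unstimulated cells.

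Lists of general cell physiology differed in their share of called genes, which was 6.60% higher and 1.71% lower over all genes tested. Of 35 cytosolic ribosomal protein genes and 25 genes of oxidative phosphorylation none was called, with medians of 0.184 and 0.186. Of 35 genes for the cell cycle and DNA replication 2 rose and none fell (median -0.052), and of 16 p53 targets 2 rose (12.5%), *Cdkn1a* (0.57 ± 0.13) and *Eda2r* (0.93 ± 0.15). Among 25 genes of the unfolded protein and stress response 1 rose and 2 fell, and *Hspa5* and *Atf4* were not called. Of 23 genes of cholesterol synthesis 1 rose. Glycolysis held 3 rises among 15 genes (20%), namely *Hk2* (1.21 ± 0.10), *Pfkfb3* (0.67 ± 0.12) and the glucose transporter *Slc2a1* (0.65 ± 0.14). *Cdkn1a* was not called without stimulated replicate 1 or without unstimulated replicate 1 or 2 (adjusted p = 0.0631 to 0.0904). *Slc2a1* was not called without stimulated replicate 1 or 2 or without unstimulated replicate 1 or 2 (adjusted p = 0.0546 to 0.0813). Hexokinase 2 (*Hk2*) was at 129, 137 and 127 CPM in stimulated and 57.7, 55.2 and 57.4 CPM in unstimulated cells.

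To see whether the response depended on the edit, all 12 libraries were fitted together, which left 14673 genes. In that fit 934 genes (6.37%) were called higher and 225 (1.53%) lower in *Adam17*-KD cells, against 844 (5.75%) and 155 (1.06%) in control cells. Called higher in both were 760 genes, 81.4% of those of *Adam17*-KD cells and 90.0% of those of control cells. Called lower in both were 100 genes, 44.4% of those of *Adam17*-KD cells and 64.5% of those of control cells, and no gene was called in opposite directions. The difference of the responses itself, tested as an interaction in edgeR, was not called for any gene (0 of 14673, 0%). In edgeR 222 genes had an unadjusted p below 0.05, fewer than the 734 that make 5% of the 14673 genes. Of the 222, 101 were among the 1018 genes called higher in either kind of cells. The response was smaller in *Adam17*-KD cells for 71 of these 101, against 120 of all 222. DESeq2 had 255 genes with an unadjusted p below 0.05, out of 29878. DESeq2 called 1 gene, *Iigp1*, and edgeR without a filter on low counts called 19. Stimulated control replicate 2 stood apart, with *Malat1* at 1500 CPM, against 289 and 261 CPM in replicates 1 and 3. Chi-square per degree of freedom of its counts was 74.5 and 73.4 against these replicates, and 16.9 between replicates 1 and 3. Without that library edgeR called 0 genes for the difference, and 329 had an unadjusted p below 0.05. The genes called in only one kind of cells were therefore not shown to respond differently.

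The smallest p of the difference belonged to *Iigp1*, an immunity-related GTPase. It was at 649, 776 and 920.2 CPM in stimulated and 9.91, 16.7 and 10.1 CPM in unstimulated *Adam17*-KD cells, against 461, 652 and 602 CPM in stimulated and 2.73, 2.35 and 3.26 CPM in unstimulated control cells. The unstimulated level was higher in all 3 *Adam17*-KD libraries than in any control library, the stimulated levels of the 2 kinds of cells overlapped, and the log2 response was 6.00 in *Adam17*-KD cells, against 7.67 in control cells (difference -1.68 ± 0.31, unadjusted p = 0.00012, adjusted p = 1). *Irgm2* was at 424, 454 and 433 CPM in stimulated and 32.3, 36.3 and 21.7 CPM in unstimulated *Adam17*-KD cells, against 387, 486 and 392 CPM in stimulated and 15.1, 12 and 12.1 CPM in unstimulated control cells. *Slfn8* was at 99.5, 117 and 113 CPM in stimulated and 16.9, 23.5 and 15.5 CPM in unstimulated *Adam17*-KD cells, against 75, 109 and 85.4 CPM in stimulated and 5.61, 8.08 and 6.78 CPM in unstimulated control cells. For these genes too, the 3 unstimulated *Adam17*-KD libraries all lay above the 3 unstimulated control libraries, and the stimulated levels overlapped. The fitted log2 responses that followed *Iigp1* in that direction were those of *Irgm2* (3.86 in *Adam17*-KD and 5.01 in control cells), *Cmpk2* (2.97 in *Adam17*-KD and 3.81 in control cells) and *Slfn8* (2.56 in *Adam17*-KD and 3.72 in control cells), with 1 predicted gene. *Ccl5* led the larger ones, with 294, 225 and 223 CPM in stimulated and 41.3, 32.7 and 47.8 CPM in unstimulated *Adam17*-KD cells, against 220.4, 188 and 197 CPM in stimulated and 71.2, 74.9 and 58.5 CPM in unstimulated control cells. Its log2 response was 2.61 in *Adam17*-KD and 1.57 in control cells (difference 1.04 ± 0.22, adjusted p = 1), and that of *Sod2* was 2.44 in *Adam17*-KD and 1.82 in control cells. *Rpa3*, *Snora21* and *Psg17* completed the 5 of smallest p in that direction. For *Nos2* the log2 response was 12.03 in *Adam17*-KD and 10.93 in control cells, a difference of 1.09 ± 0.78 (adjusted p = 1).

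The fitted difference of the responses was negative for most members of several lists of interferon-induced genes. It was negative in 47 of 51 other interferon-stimulated genes (medians of 2.06 in *Adam17*-KD and 2.74 in control cells), in all 10 immunity-related GTPases (4.41 in *Adam17*-KD and 5.56 in control cells), and in 7 of 8 oligoadenylate synthetase genes (1.655 in *Adam17*-KD and 1.885 in control cells). For guanylate-binding proteins it was negative in 7 of 9 genes, with a median difference per gene of -0.771. The list medians of the responses were 6.66 in *Adam17*-KD and 6.62 in control cells. For IFIT and IFITM genes it was negative in 6 of 9 (2.69 in *Adam17*-KD and 3.29 in control cells) and for class I processing genes in 14 of 16 (2.48 in *Adam17*-KD and 2.82 in control cells). For *B2m* and the class I heavy chains it was negative in 6 of 15 (1.475 in *Adam17*-KD and 1.37 in control cells). It was negative in 1 of 9 MHC class II genes (medians of 3.19 in *Adam17*-KD and 2.35 in control cells) and in none of 14 constitutive proteasome subunits (0.507 in *Adam17*-KD and 0.231 in control cells). Over all genes it was negative in 46.9% of 14673 (median 0.0171) and in 53.6% of the 1018 genes called higher in either kind of cells. The mean unstimulated level was higher in *Adam17*-KD than in control cells in 50 of the 51 other interferon-stimulated genes, all 10 immunity-related GTPases, 7 of 8 oligoadenylate synthetases and 8 of 9 guanylate-binding proteins. The mean stimulated level was also higher in *Adam17*-KD cells in 46 of 51, 8 of 10, 7 of 8 and 9 of 9 genes of these lists. The share over all genes was not computed, and it varied between other lists. The unstimulated mean was higher in *Adam17*-KD cells in 21 of 24 cholesterol genes and 0 of 35 ribosomal protein genes. The stimulated mean was higher in 22 and 6 of them. The unstimulated levels also enter the fitted responses, so these counts are not independent of the differences above. *Gbp2* was at 5073, 6849 and 6719.8 CPM in stimulated and 55.2, 69.0 and 51.9 CPM in unstimulated *Adam17*-KD cells, against 4212, 5245 and 5231 CPM in stimulated and 28.4, 28.0 and 26.0 CPM in unstimulated control cells, so that only the unstimulated levels did not overlap. These counts carry no test. No gene of these lists passed the test of the difference in edgeR with its filter on low counts. The 19 genes called without the filter included *Iigp1*, *Irgm2*, *Igtp* and *Ifi47* of the immunity-related GTPases, *Gbp6*, *Gbp7* and *Gbp9*, and *Ifit3*, *Oas2*, *Parp14*, *Uba7* and *Zbp1*.

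**Figure D5:**
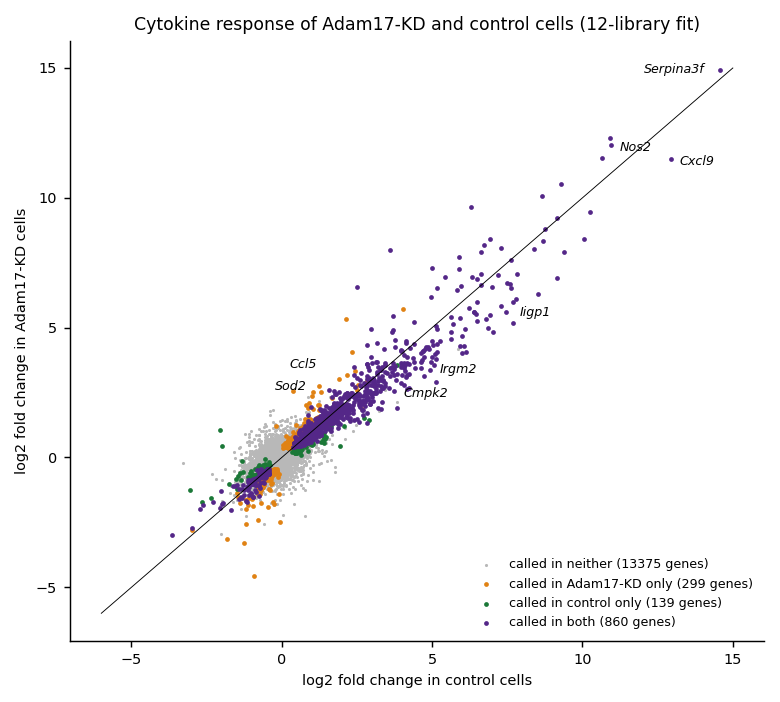
Log2 fold change of stimulated over unstimulated cells in *Adam17*-KD cells (vertical axis) against control cells (horizontal axis) for 14673 genes of the 12-library fit, with the line of equal response. The 760 genes called higher in both lie along the line, *Iigp1* lies below it at 6.00 in *Adam17*-KD and 7.67 in control cells, and *Ccl5* above it at 2.61 in *Adam17*-KD and 1.57 in control cells.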

How the data were processed

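Poly(A)+ RNA was sequenced on the Ion platform, and the authors deposited a table of raw read counts per gene for all 12 libraries, made on the mm10 build. The aligner, the counter, the annotation and the use of strand are not given in the sources used here, so genes that overlap or share sequence are uncertain. Gene names that a spreadsheet had turned into dates (2 lines, 0.00808% of counts) were left out. Counting error, and the spread between 3 libraries per group, set the precision, and total counts per library were 13201129 to 22127761.

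Counts were scaled by TMM over 12 libraries, filtered with filterByExpr and tested with edgeR 4.0.16 (quasi-likelihood F-test, R 4.3.3) on the 6 *Adam17*-KD libraries, with Benjamini-Hochberg adjustment and calls below 0.05. The difference of responses was fitted on 12 libraries. The test was checked on simulated counts. Alternatives used DESeq2 1.42.0, limma 3.58.1 (voom), other scalings and filters, glmTreat, a replicate block and each library left out. Replicates of each group differed by more than sampling noise. Promoters and transcript lengths came from RefSeq (GRCm38.p6) and GENCODE M21.

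Named genes were those the study followed, the 15 largest rises and falls at a mean of at least 20 counts, and in each list the called genes of smallest p and the most abundant uncalled ones, with predicted genes only counted. The members and lists were chosen with earlier results of these data known, and 11 of the lists after the values were seen. *Casp1*, *Cish*, *Egfr*, *Gsdmd*, *Ifngr1*, *Ifngr2*, *Isg15*, *Nlrc5*, *Psmb10*, *Tnf*, *Il1a*, *Il1b*, *H2-DMb1*, *Oas2* and *Uba7* were also named after their values were seen. Some genes are not reported here and were left out of the list counts.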

Additional observations from a re-analysis of the deposited data

How the results depend on the processing

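The 933 genes called higher in *Adam17*-KD cells numbered 805 to 1130 under the other scalings, filters and tools and in the 12-library fit, and 523 when edgeR tested for a change beyond 1.5-fold. The 242 called lower numbered 261 and 278 under the other scalings, 371 with no filter on low counts, 365 with DESeq2, 222 with limma-voom, 225 in the 12-library fit and 41 beyond 1.5-fold. Leaving out 1 library gave 717 to 884 genes called higher and 93 to 233 called lower. No gene called in the main fit was called in the opposite direction in any of these settings. In *Adam17*-KD cells the deviations of same-numbered libraries from their group means correlated for replicate 2 (0.397), but not for replicates 1 and 3 (-0.304 and -0.248). In control cells the correlations were 0.201, 0.59 and 0.693 for replicates 1, 2 and 3. There, stimulated replicate 1 correlated more with unstimulated replicate 3 (0.414) than with its own number. In *Adam17*-KD cells stimulated replicate 1 correlated with unstimulated replicate 3 (0.483) and stimulated replicate 3 with unstimulated replicate 1 (0.309). A pairing other than by number was not tested. With a block by replicate number, *Adam17*-KD cells had 808 genes called higher and 188 lower, and 0 genes were called for the difference of responses. For that difference, 0 genes were called in edgeR, 19 without a filter on low counts and 1 with DESeq2, and 0 in limma-voom and in each fit without 1 library. At an unadjusted p below 0.05 there were 222 genes in edgeR, 255 in DESeq2 and 213 in limma-voom. Of the 178 called genes named, 21 lost the call without some library. Under the replicate block 7 lost it, *Il7*, *Il17rd*, *Nfil3*, *Per2*, *Per3*, *Plat* and *Slc2a1*. Under another setting 36 lost it, of which *Dlk2*, *Flnc*, *Per3* and *Slc7a2* in the 12-library fit, *Nfil3* under both other scalings, *Per3* and *Sned1* in limma-voom and *Per3* with a mean of at least 50 counts. All 36 but *Sned1* were lost in the test beyond 1.5-fold, the others being *Adam9*, *Bambi*, *Bhlhe41*, *Cav1*, *Cdkn1a*, *Col1a2*, *Dcn*, *Dusp1*, *Eda2r*, *Erbb3*, *Ereg*, *Gxylt2*, *H2-DMb1*, *Il7*, *Il16*, *Il17rd*, *Irf9*, *Mmp11*, *Nrp2*, *Pdgfra*, *Pdgfrb*, *Per2*, *Pfkfb3*, *Plat*, *Rhbdf2*, *Slc2a1*, *Slc39a14*, *Tgfb3*, *Tgfbr2* and *Vcl*. The log2 fold changes of uncalled *Irf3* (-0.007098 to 0.18) and *Adam10* (-0.18 to 0.077) crossed 0 when 1 library was left out. The cause of these shifts was not tested. Genes below the filter on low counts were not tested, and what they did is not known here.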
